A study of Mus musculus with 6 samples.

Results

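Transcripts of 9 cathepsins (Ctsa, Ctsb, Ctsc, Ctsd, Ctsf, Ctsh, Ctsk, Ctsl and Ctsz) and of cystatin C (Cst3) were described in mouse brown adipocytes treated with rotenone. The 10 genes were taken by symbol from 26214 genes listed in each library, and all 10 passed the filter on low counts that left 14709 genes for testing. The cells were immortalized brown preadipocytes, differentiated in culture and treated at day 7 for 16 h with 100 nM rotenone, an inhibitor of complex I of the respiratory chain, or with the solvent DMSO alone. Both groups had the same differentiation and culture, and nothing read here says whether the immortalized line was a single clone. Each group had 3 deposited libraries. The 3 rotenone files differed at 0 genes and were counted as 1 library, so 3 DMSO libraries were set against 1 rotenone library.

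Cathepsins are proteases that work mainly in lysosomes, the acidic compartments where cells break down proteins taken up from outside or delivered by autophagy. Most are made as inactive precursors in the endoplasmic reticulum, tagged with mannose 6-phosphate in the Golgi, carried to endosomes by mannose 6-phosphate receptors, and activated by cleavage at low pH. They differ in the residue that cuts the peptide bond: Ctsd is an aspartic protease, Ctsa a serine carboxypeptidase, and Ctsb, Ctsc, Ctsf, Ctsh, Ctsk, Ctsl and Ctsz are papain-type cysteine proteases. Cystatins are tight-binding inhibitors of the cysteine type. Cystatin C is secreted and acts largely outside the cell, while cystatin B (Cstb) acts in the cytosol.

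Total counts were 26085061 to 29194179 in the DMSO libraries and 21611589 in the rotenone library. The spread between replicates came from the DMSO libraries alone, whose biological coefficient of variation was 6.9%. The labels call them replicates and do not mention separate cultures, so the p-values reflect the spread among these libraries only, which may be technical. Levels are given as CPM, which is counts scaled to library size, here after TMM normalization. Changes are log2 fold changes of rotenone against DMSO ± SE from edgeR's quasi-likelihood test, with Benjamini-Hochberg adjustment over all genes tested and a threshold of 0.05. An exact permutation test of 3 libraries against 1 cannot give a p below 0.25, so none was used for single genes.

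Many lysosomal genes are bound by the transcription factors TFEB and TFE3 at an E-box, CACGTG, within a longer element known as CLEAR, so the stretches upstream of the start sites are shown for the genes in which that E-box was found. RefSeq's table of start sites on GRCm38.p6 matched 8 of the 10 genes, with a pair of start sites for Ctsa, and it held none for Ctsb and Ctsh. In windows of 300 bases, from 250 bases before to 50 after the start, CACGTG (identical on both strands) was found in 4 of the 9 windows, those of Ctsd, Ctsf and Ctsl and the second of Ctsa, against 7.15% of all 32851 windows in the table. The longer TCACGTG, searched on both strands and always containing CACGTG, was found in 2 of the 9 windows, those of Ctsd and the second of Ctsa, and in 3.77% of all windows. The 250 bases before each start are written 5′ to 3′ on the strand of the gene, with CACGTG, and the flanking base where TCACGTG or its reverse complement was present, in capitals.
Ctsd, chr7:142387828-142388077, minus strand: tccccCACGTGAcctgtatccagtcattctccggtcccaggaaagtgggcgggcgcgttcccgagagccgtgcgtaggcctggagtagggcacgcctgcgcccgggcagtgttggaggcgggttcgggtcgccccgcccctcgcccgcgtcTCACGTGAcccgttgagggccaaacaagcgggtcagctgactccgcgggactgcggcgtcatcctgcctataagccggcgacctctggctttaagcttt
Ctsa, second start site, chr2:164833523-164833772, plus strand: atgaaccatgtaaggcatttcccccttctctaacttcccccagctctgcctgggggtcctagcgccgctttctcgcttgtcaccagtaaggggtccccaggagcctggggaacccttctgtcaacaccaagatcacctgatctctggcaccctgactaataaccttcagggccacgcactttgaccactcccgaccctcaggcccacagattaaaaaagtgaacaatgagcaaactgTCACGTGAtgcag
Ctsl, chr13:64370521-64370770, minus strand: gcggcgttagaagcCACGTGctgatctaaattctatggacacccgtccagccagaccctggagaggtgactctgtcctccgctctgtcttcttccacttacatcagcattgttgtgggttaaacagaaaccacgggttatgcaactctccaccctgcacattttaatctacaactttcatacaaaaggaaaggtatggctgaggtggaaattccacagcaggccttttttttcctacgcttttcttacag
Ctsf, chr19:4854915-4855164, plus strand: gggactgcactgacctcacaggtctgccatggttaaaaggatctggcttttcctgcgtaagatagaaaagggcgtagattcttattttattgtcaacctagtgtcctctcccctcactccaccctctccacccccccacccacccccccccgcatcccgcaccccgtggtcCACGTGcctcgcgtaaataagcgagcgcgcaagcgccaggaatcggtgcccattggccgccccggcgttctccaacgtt

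In the Ctsd sequence the E-boxes began 245 and 98 bases before the start. In Ctsa one began 12 bases before it, and a further one lay after the start, outside the printed stretch. The E-box of Ctsf began 79 bases before the start and that of Ctsl 236 bases before it. These distances are to RefSeq's start sites. By the GENCODE gene spans given below, the printed stretches of Ctsl and Ctsa lie wholly inside the gene. Those of Ctsd and Ctsf lie partly inside it. Which start sites the cells used was not tested. GGGCGG, the GC box, was found on either strand in 5 of the 9 windows (Ctsc, Ctsd, Ctsf, Ctsz and Cst3) and in 35.7% of all windows, and TATAAA in none of the 9 and in 13.6% of all windows. These are letter matches, and no binding was measured. Of the genes with the E-box, Ctsd and Ctsl were higher with rotenone, while Ctsa and Ctsf did not pass the threshold, as the values that follow show. The genes with a window but no E-box, Ctsc, Ctsk, Ctsz and Cst3, were all higher. Ctsb and Ctsh had no window. Any part of the E-box in these changes was not tested.

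Of the 10 genes, 7 were higher with rotenone, none was lower and 3 did not pass the threshold by edgeR, and 0 were lower at an unadjusted p under 0.05 or with DESeq2 or limma-voom. Over all genes tested, 56.1% passed the threshold, 27.6% higher and 28.5% lower. The median log2 fold change of the 10 genes was 0.74, against -0.04 for all genes tested. The rotenone level lay above all 3 DMSO libraries for 9 of the 10 genes and inside their range for Ctsf. Over all genes tested the rotenone library lay outside the DMSO range, above or below it, for 86.2%. The share above it alone was not counted. Together the 10 genes took 0.229% to 0.237% of counts in the DMSO libraries and 0.360% in the rotenone library (Wilson 95% interval 0.358% to 0.363%, which covers counting error only).

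**Figure D1:**
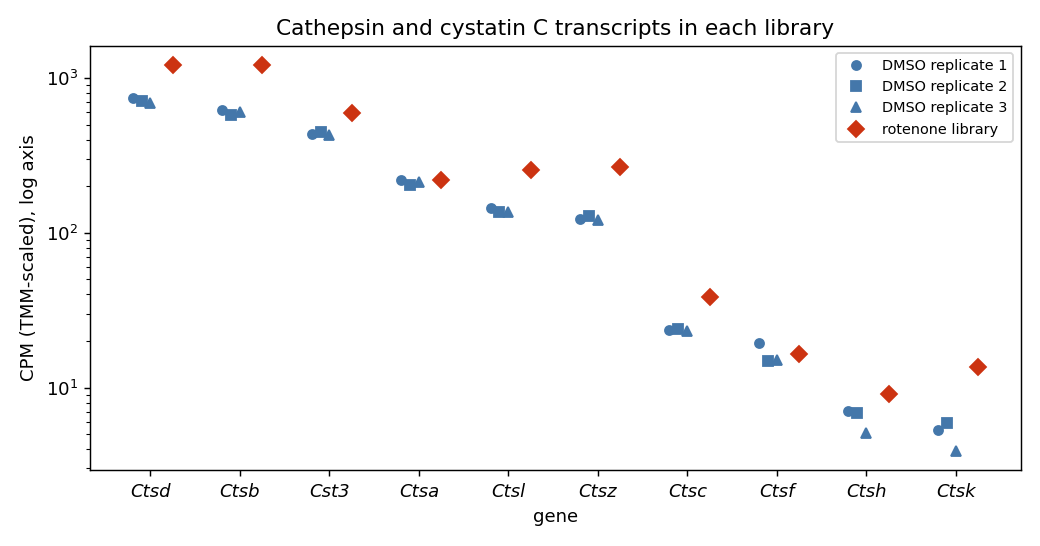
TMM-scaled CPM (log axis) of the 10 genes in each library, ordered by DMSO mean. Blue symbols are the 3 DMSO replicates and red diamonds the single rotenone library. The rotenone library lies above all DMSO libraries for every gene but Ctsf.

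The fit had to take the spread of the lone rotenone library from the DMSO replicates. With a coefficient of variation of 20% assumed for every gene, 4 of the 10 genes were higher (Ctsb, Ctsk, Ctsl and Ctsz) and none lower. Over all genes tested 23.6% passed in that setting, 9.57% higher and 14.0% lower. At an unadjusted p under 0.05 the counts of the 10 genes were 6 higher and 0 lower. Ctsc, Ctsd and Cst3 did not pass in that setting. Scaling by library size only moved the median of all genes to -0.16 and the split of calls from 4054 higher and 4197 lower to 3245 and 5153, and 7 of the 10 genes were again higher.

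Ctsd, the main aspartic protease of lysosomes, lies at chromosome 7, 142375911 to 142388038 (GRCm38, minus strand, 9 exons in the longest transcript). DMSO replicates 1 to 3 measured 742, 712 and 693 CPM, and the rotenone library 1209 CPM. The DMSO libraries lay close together and the rotenone library stood clear above them. Ctsd rose by 0.76 ± 0.06 on the log2 scale, which is 1.69-fold (edgeR adjusted p = 5.67e-09), a call not made with the 20% coefficient of variation (adjusted p = 0.0689). Its exons share 808 of 2351 bases with the annotated gene Gm49369 on the same strand, and the part of that overlap in the counts of Ctsd was not tested.

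Ctsb, an abundant cysteine protease that works as both an endopeptidase and a dipeptidyl carboxypeptidase, lies at chromosome 14, 63122462 to 63145923, with 10 exons. It measured 620.3, 579 and 605 CPM in the DMSO replicates and 1209 CPM with rotenone. The rotenone library lay above all DMSO libraries. Ctsb rose by 1.01 ± 0.06 on the log2 scale, or 2.01-fold (edgeR adjusted p = 9.84e-11). Its exons share 774 bases with those of Fdft1 on the opposite strand, and whether strand was used in counting is unknown. Fdft1, squalene synthase, gave 0.20 ± 0.07 on the log2 scale.

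Ctsl, an endopeptidase that degrades proteins delivered by autophagy, lies at chromosome 13, 64359337 to 64370890, and had 144, 137 and 135 CPM in DMSO and 254 CPM with rotenone. It rose by 0.87 ± 0.07 on the log2 scale, or 1.83-fold (edgeR adjusted p = 1.94e-09). Exons of Ctsl share 1742 of 6489 bases with the antisense gene Gm47123 and 395 with the pseudogene Gm49230 on the same strand. The part of these overlaps in the counts of Ctsl was not tested. Ctsk, the collagen-degrading cathepsin best known from osteoclasts and also made by fibroblasts, lies at chromosome 3, 95499256 to 95509362. It stood at 5.30, 5.92 and 3.89 CPM in DMSO and at 13.5 CPM with rotenone (95% Poisson interval 12.0 to 15.2 CPM). The DMSO libraries spread widely, with a coefficient of variation of 20.6%, but none came near the rotenone level. Ctsk had the largest change of the 10 genes, a rise of 1.42 ± 0.22 or 2.67-fold (edgeR adjusted p = 1.71e-05). Ctsf, a widely expressed endopeptidase on chromosome 19 (4855130 to 4860918), measured 19.5, 14.7 and 15.0 CPM in DMSO and 16.6 CPM with rotenone, inside the DMSO range. Its log2 fold change was 0.01 ± 0.17 (edgeR adjusted p = 0.962), with a sign that turned under other scalings and on leaving out single DMSO libraries.

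The exopeptidases trim peptides from their ends. Ctsz, a carboxypeptidase also called cathepsin X (chromosome 2, 174427493 to 174439039), gave 124, 128 and 121 CPM in DMSO and 266 CPM with rotenone. Its DMSO values fell within a narrow band and the rotenone value was more than 2-fold above it. Ctsz rose by 1.10 ± 0.07 on the log2 scale, or 2.14-fold (edgeR adjusted p = 7.24e-11). Ctsc, the dipeptidyl peptidase that activates serine proteases of immune cells (chromosome 7, 88278085 to 88310888), had 23.4, 23.8 and 23.3 CPM in DMSO and 38.6 CPM with rotenone. The DMSO replicates of Ctsc differed least of all 10 genes, with a coefficient of variation of 1.07% on 692, 687 and 623 counts. That is less than counting error alone would give. Ctsc rose by 0.72 ± 0.11 on the log2 scale, or 1.64-fold (edgeR adjusted p = 1.36e-05, and 0.0958 with the 20% coefficient of variation). Ctsh, an aminopeptidase (chromosome 9, 90054152 to 90076089), had 7.02, 6.89 and 5.09 CPM in DMSO and 9.07 CPM with rotenone. Its log2 fold change of 0.51 ± 0.22 did not pass the threshold (edgeR adjusted p = 0.0551), and over the alternatives the adjusted p ran from 0.0164 without DMSO replicate 1 to 0.294 with the 20% coefficient of variation. It was 0.0444 without DMSO replicate 2, 0.0464 with median-ratio scaling and 0.0429 with no filter on low counts. It was 0.131 both without DMSO replicate 3 (log2 fold change 0.38) and with DESeq2.

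Ctsa, which protects the sialidase Neu1 and beta-galactosidase Glb1 in a lysosomal complex besides acting as a peptidase, lies at chromosome 2, 164832873 to 164841032. It measured 219, 205 and 211 CPM in DMSO and 219.9 CPM with rotenone. The rotenone library lay just above DMSO replicate 1, the highest of the 3. Its log2 fold change was 0.06 ± 0.07 (edgeR adjusted p = 0.502) and -0.06 with library size scaling. Exons of Ctsa share 495 bases with Pltp and 324 bases with Neurl2 on the opposite strand, and these gave log2 fold changes of -0.22 ± 0.08 and -1.34 ± 0.15. The part of such overlaps in the counts of Ctsa was not tested.

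Cst3, the secreted inhibitor, lies at chromosome 2, 148871722 to 148875692. Cst3 had 432, 449 and 427 CPM in DMSO and 597 CPM with rotenone, above all DMSO libraries. It rose by 0.45 ± 0.06 on the log2 scale, or 1.37-fold (edgeR adjusted p = 5.3e-06, and 0.33 with the 20% coefficient of variation). Cst3 has the shortest transcript of the 10 genes, 860 bases. In the rotenone library the median log2 ratio to DMSO was 0.21 in the shortest length decile of all genes and -0.25 in the longest. With an offset that removes this trend the change of Cst3 was 0.24 ± 0.06 (edgeR adjusted p = 0.00205), and that of Ctsl, whose longest transcript has 6168 bases, was 1.08 ± 0.06. The Ctsl value, and its level per kb, rest on that transcript. Gene counts do not tell which isoform the cells make, and its coding sequence has 1002 bases.

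**Figure D2:**
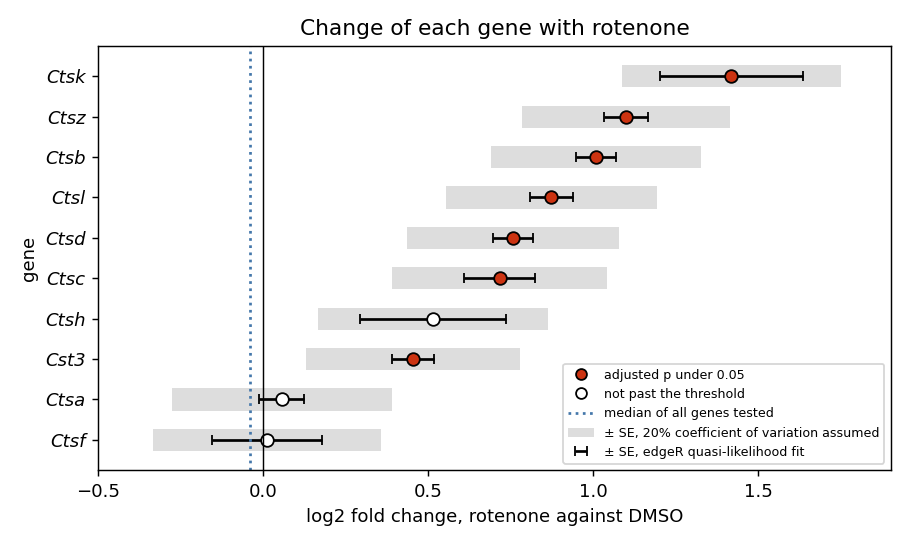
Log2 fold change of each gene, rotenone against DMSO, from the edgeR fit to 3 DMSO libraries and 1 rotenone library. Filled points passed an adjusted p of 0.05, black bars are ± SE, grey bars are ± SE with a 20% coefficient of variation assumed, and the dotted line is the median of all genes tested. Ctsk, Ctsz and Ctsb lie at 1.01 or more, and Ctsa and Ctsf lie near 0.

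Each cathepsin can also be set against Cst3 within a library, where the scaling between libraries has no part. Ctsd and Ctsa are not of the cysteine type, so for them Cst3 is a reference transcript and not an inhibitor. The log2 ratio of Ctsz to Cst3 counts was -1.81, -1.81 and -1.82 in the DMSO libraries and -1.17 in the rotenone library. That of Ctsb was 0.52, 0.37 and 0.50 in DMSO and 1.02 with rotenone, and that of Ctsl was -1.59, -1.71 and -1.66 against -1.23. Relative to Cst3, 6 cathepsins (Ctsk, Ctsz, Ctsb, Ctsl, Ctsd and Ctsc) stood higher in the rotenone library than in any DMSO library, by 0.26 to 0.99 over the DMSO mean. Ctsa and Ctsf stood lower than in any DMSO library, with differences of -0.40 and -0.43, and Ctsh lay inside the DMSO range. These are descriptions of 4 libraries with no test. They keep the length trend described for Cst3.

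**Figure D3:**
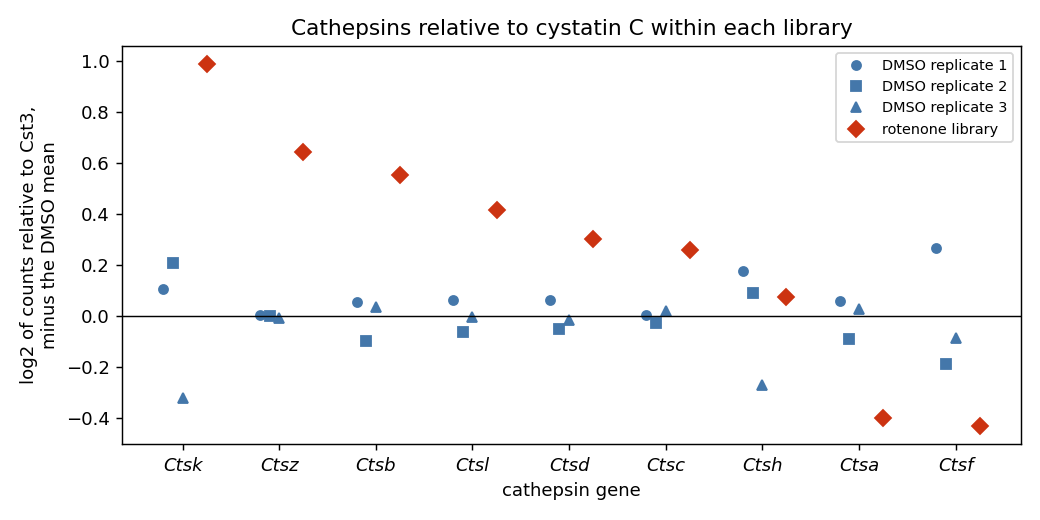
Log2 of each cathepsin's counts relative to Cst3 counts in the same library, minus the mean of the 3 DMSO libraries. Blue symbols are DMSO replicates and red diamonds the rotenone library. Ctsk is highest at 0.99, and Ctsa and Ctsf lie below all DMSO replicates.

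To compare levels between genes, CPM was divided by the length of the longest annotated transcript in kb. On that scale Cst3 was highest in DMSO at 507 ± 14 CPM per kb (SD, n = 3), followed by Ctsd at 337 ± 12, Ctsb at 127 ± 4.3, Ctsz at 86.2 ± 2.5, Ctsa at 58.1 ± 1.9 and Ctsl at 22.5 ± 0.71. The ranges of these 6 genes in DMSO did not overlap. Ctsf at 7.84 ± 1.3 and Ctsc at 7.30 ± 0.078 CPM per kb overlapped, whereas Ctsk at 3.33 ± 0.69 lay below both and only just above the range of Ctsh, at 2.31 ± 0.39. With these lengths the first 6 kept their order in the rotenone library, and Ctsk moved from rank 9 to rank 8, above Ctsf at rank 9. The order depends on the length used. Per kb of the union of exons, Ctsd (514 CPM per kb) stood above Cst3 (472 CPM per kb) in the rotenone library. Per kb of coding sequence, Ctsb stood at 591 and Ctsd at 582 CPM per kb in DMSO, with overlapping ranges. Ctsl at 138 CPM per kb then overlapped both Ctsa and Ctsz, and from DMSO to rotenone Ctsa went from rank 4 to 6 and Ctsz from rank 6 to 4.

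The summed level of the 9 cathepsins was 672, 645 and 636 CPM per kb in DMSO and 1142 CPM per kb with rotenone, 1.75 times the DMSO mean. Ctsd made up 51.7% ± 0.41 of this sum in DMSO (SD, n = 3) and 49.8% with rotenone. The share of Ctsb went from 19.5% ± 0.55 to 22.3%, and that of Ctsz from 13.3% ± 0.51 to 16.2%, while that of Ctsa went from 8.92% ± 0.20 to 5.28%. The shares of Ctsb and Ctsz were thus larger and that of Ctsa smaller in the rotenone library than in the DMSO libraries, a description with no test. The leading cathepsin depends on the length used. With coding lengths the share of Ctsb was 36.3% ± 0.76 in DMSO (SD, n = 3) and 40.6% with rotenone. That of Ctsd was then 35.7% ± 0.50 and 33.6%, and that of Ctsa 8.79% and 5.09%.

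Most other cathepsins had no counts. Of 14 further cathepsin genes, 12 had 0 counts in all 4 libraries, among them Ctss, a cathepsin of macrophages and other antigen-presenting cells, and Ctse. Taking 3 counts as the limit that a count of 0 allows, the level could be up to 0.101 CPM in the deepest DMSO library and 0.148 CPM in the rotenone library. Ctsw had 2 to 6 counts a library. The remaining one, the lysosomal cysteine protease Ctso, had 20.0 ± 2.4 CPM in DMSO (SD, n = 3) and 17.4 CPM with rotenone, a log2 fold change of -0.20 ± 0.15 that did not pass the threshold (edgeR adjusted p = 0.27).

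Of 28 other cystatins and cathepsin inhibitors, 11 were tested, of which 2 rose and 1 fell, with a median of 0.22 (0 and 2 with the 20% coefficient of variation; 1 and 2 at an unadjusted p under 0.05 there). That share of calls lies below the 56.1% of all genes, but low counts limit it. Cst6, Cst7, Ctla2a, Serpinb1a, Serpinb6b and Serpina3n had DMSO means of only 0.239 to 0.934 CPM, with SE of 0.67 to 3.30. Cst7, called lower with the 20% coefficient of variation, had 12, 9 and 0 counts in DMSO and 0 with rotenone. In that setting 23.6% of all genes passed. Cstb, the cytosolic cystatin, had 140 ± 2.2 CPM in DMSO (SD, n = 3) and 192 CPM with rotenone. It rose by 0.46 ± 0.07, and with the length offset by 0.25 ± 0.07. Serpinb6a rose by 0.22 ± 0.07, a call lost with library size scaling (0.10 ± 0.07, edgeR adjusted p = 0.235) and with the length offset (adjusted p = 0.217). Kng2, a kininogen with cystatin domains, fell from 11.5 ± 0.12 CPM (SD, n = 3) to 4.78 CPM, a log2 fold change of -1.26 ± 0.20.

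Genes that sort cathepsins to lysosomes moved in both directions. Of 21 tested, 10 rose and 3 fell, with a median of 0.21 (7 and 4 with library size scaling). That is 61.9% called, near the 56.1% of all genes. None passed in edgeR with the 20% coefficient of variation, where 1 was higher at an unadjusted p under 0.05. The cation-independent mannose 6-phosphate receptor Igf2r rose by 0.39 ± 0.09, while the small receptor M6pr gave 0.09 ± 0.07 and did not pass. Gnptg and Nagpa, which act in making the mannose 6-phosphate tag, rose by 0.69 ± 0.13 and 0.49 ± 0.16. The call for Nagpa was lost with library size scaling (0.37 ± 0.16, edgeR adjusted p = 0.0592) and with the length offset (adjusted p = 0.0582). Gnptab, which encodes the catalytic subunits of the same transferase as Gnptg, gave -0.0018 ± 0.13. Clathrin light chain Clta rose by 0.51 ± 0.07. Sort1, a sorting receptor that also carries lysosomal proteins, fell from 183 ± 6.4 CPM (SD, n = 3) to 130.1 CPM, a log2 fold change of -0.49 ± 0.07.

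Other lysosomal proteases and the partners of cathepsin A mostly rose. Of 9 tested, 7 rose and 1 fell, with a median of 0.80 (4 and 0 with the 20% coefficient of variation). That is 88.9% called, against 56.1% of all genes, of which 27.6% were higher. With the 20% coefficient of variation, 23.6% of all genes passed, 9.57% higher and 14.0% lower. With library size scaling 6 rose and 2 fell. Neu1, the sialidase held in the complex with Ctsa, had 49.4 ± 2.1 CPM in DMSO (SD, n = 3) and 114 CPM with rotenone. It rose by 1.21 ± 0.08, whereas Glb1, beta-galactosidase of the same complex, gave -0.23 ± 0.12 and did not pass, though it was called lower with library size scaling (-0.35 ± 0.12, edgeR adjusted p = 0.0166). Scpep1, a serine carboxypeptidase related to Ctsa, rose by 0.97 ± 0.06, from 239 ± 2.9 (SD, n = 3) to 469 CPM. The dipeptidyl peptidase Dpp7 rose by 1.32 ± 0.12, the tripeptidyl peptidase Tpp1 by 0.56 ± 0.09, and Lgmn, the asparaginyl endopeptidase that helps process cathepsin precursors, by 0.80 ± 0.08. Psap, the precursor of the saposins and a cargo that Sort1 also carries, rose by 0.83 ± 0.06.

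Of 13 tested regulators of lysosomal genes and lysosomal membrane markers, 11 rose and none fell in edgeR (0 lower at an unadjusted p under 0.05), with a median of 0.61 (3 and 0 with the 20% coefficient of variation). That is 84.6% called, against 56.1% of all genes, of which 27.6% were higher. With the 20% coefficient of variation, 3 of 13 is near the 23.6% of all genes called there, 9.57% higher and 14.0% lower. With library size scaling 9 rose and 0 fell. Tfeb and Tfe3, the transcription factors of the CLEAR element, rose by 0.59 ± 0.11 and 0.67 ± 0.08, neither of which passed with the 20% coefficient of variation. Tfeb went from 25.4 ± 0.66 CPM (SD, n = 3) to 38.2 CPM. Rragd, a Rag GTPase, rose by 0.96 ± 0.20. Lamp1, a main glycoprotein of the lysosomal membrane, rose by 0.93 ± 0.08, and Cd63, a tetraspanin of the same compartment, by 1.19 ± 0.07. These are transcript levels, and neither protein nor protease activity was measured.

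**Figure D4:**
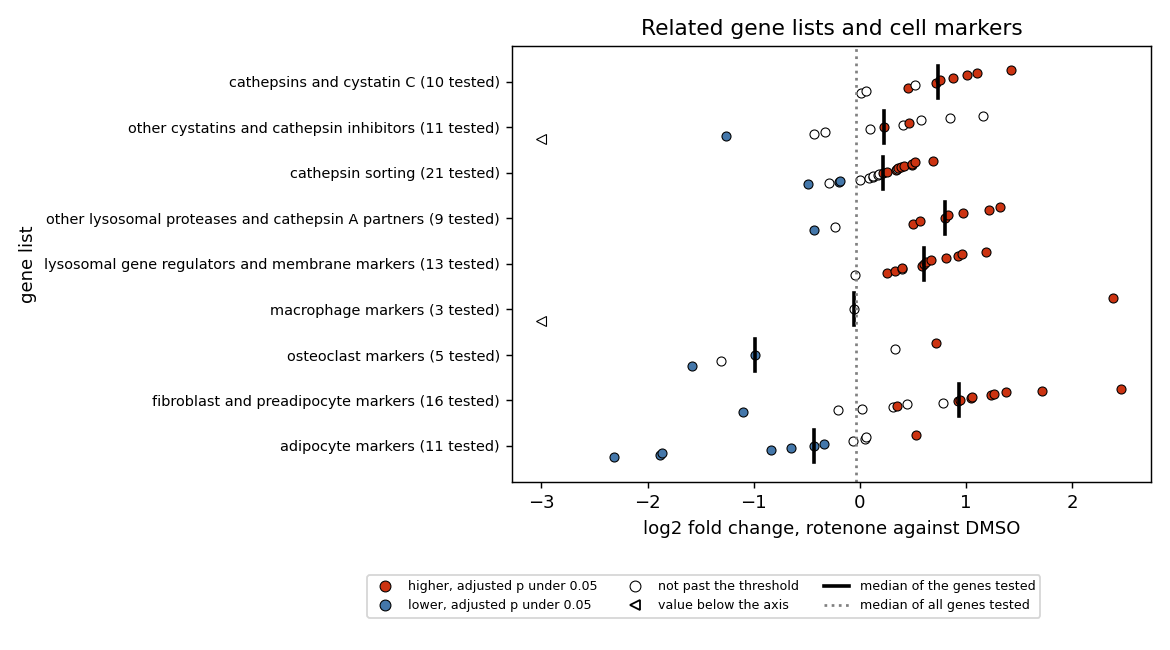
Log2 fold change of each tested gene in 9 lists, with red for higher and blue for lower at an adjusted p under 0.05, white for genes that did not pass, black lines for list medians and a dotted line for the median of all genes. Triangles mark Cst7 and Fcer1g, which had 0 counts with rotenone and lie below the axis. The list medians run from 0.93 for fibroblast and preadipocyte markers to -0.99 for osteoclast markers, with 0.74 for the cathepsins and cystatin C.

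Markers of other cell types were read beside the cathepsins, since macrophages, osteoclasts and fibroblasts also make them. In a bulk library, fewer cells of a type and less RNA per cell cannot be told apart. Of 16 listed macrophage markers, 8 had 0 counts in all libraries, among them Adgre1, Ptprc, C1qa, C1qb and C1qc, and 3 were tested. Of these, Cd68 rose and none fell in edgeR, where 1 was lower at an unadjusted p under 0.05. That is 33.3% called, against 56.1% of all genes. The median of the 3 was -0.06, which is the value of Cd14. Assuming the 20% coefficient of variation, 1 rose and 1 fell, and 23.6% of all genes passed. The summed macrophage markers stood at 4.66 to 4.68 CPM in DMSO and 16.8 CPM with rotenone, of which Cd68, also a lysosomal membrane protein, made up 15.5 CPM. Cd68 rose by 2.38 ± 0.23. Cd14, a receptor for bacterial lipopolysaccharide, gave -0.06 ± 0.60, and Fcer1g, an adaptor of Fc receptors, went from 15, 8 and 6 counts in DMSO to 0 with rotenone. Of 5 osteoclast markers tested, 1 rose and 2 fell, with a median of -0.99 (0 and 3 with the 20% coefficient of variation and also with library size scaling). The 3 called of 5 lie near the 56.1% of all genes called. The summed level of that list was 29.5 to 32.1 CPM in DMSO and 22.2 CPM with rotenone. Nfatc1, the osteoclast transcription factor, fell by 0.99 ± 0.17.

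Fibroblast and preadipocyte markers were mostly higher with rotenone. Of 16 tested, 10 rose and 1 fell, with a median of 0.93 (9 and 1 with the 20% coefficient of variation), and their sum was 3329 to 3619 CPM in DMSO and 7218 CPM with rotenone. That is 68.75% called, against 56.1% of all genes, of which 27.6% were higher and 28.5% lower. With the 20% coefficient of variation, 9.57% of all genes were higher and 14.0% lower. No marker of this list was at 0 counts throughout, though Dpp4 and Lum had at most 2 counts a library. Acta2 rose by 2.46 ± 0.06, Thy1 by 1.71 ± 0.10 and Dlk1 by 1.38 ± 0.10. Pdgfra was the 1 that fell, with a log2 fold change of -1.11 ± 0.16. Cd34, Ly6a, Pi16, Fap and Dcn did not pass the threshold. Of 11 adipocyte markers, 1 rose and 7 fell, with a median of -0.43 (0 and 3 with the 20% coefficient of variation), and their sum was 12860 to 14090 CPM in DMSO and 12330 CPM with rotenone. The share called was 72.7%, against the same 56.1% of all genes. Cebpa gave -2.31 ± 0.08, Lipe -1.88 ± 0.07 and Ucp1 -1.86 ± 0.21. Lpl was the 1 that rose, by 0.53 ± 0.07, and Fabp4, Cd36 and Cidea did not pass the threshold. The part of these marker changes in the rise of the cathepsins was not tested.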

How the data were processed

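Each deposited file holds whole-number read counts per gene symbol, not normalized; the submitters' processing notes name TopHat2 (no version) and mm10. For the counting program, annotation and strand setting: not given in the sources used here. Positions and lengths are from GENCODE M21 (GRCm38), and start-site sequences from RefSeq (GRCm38.p6). The 3 rotenone files were identical and entered once.

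Counts were scaled by TMM, filtered with filterByExpr and tested with edgeR 4.0.16 (R 4.3.3; robust quasi-likelihood F test, 2 residual degrees of freedom), with Benjamini-Hochberg adjustment over 14709 genes. The SE is the log2 fold change divided by the square root of F. The test was tried on simulated counts. Named genes were the 10 members, 16 fixed others, and from each list up to 3 called genes of largest change with a mean of at least 5 CPM; others, such as Fdft1, Pltp and Neurl2, were chosen after their values were seen. The members and the 9 lists were chosen with earlier results of these data known. Alternatives were other scalings, no filter, leaving out each DMSO library, DESeq2 1.42.0, limma-voom (limma 3.58.1), an assumed 20% coefficient of variation and an offset by length decile. Coding length was added after seeing the data.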

Additional observations from a re-analysis of the deposited data

How the results depend on the processing

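No paired analysis was possible because the rotenone files held 1 library, so the groups shared fewer than 2 replicate numbers. In the other scalings, with no filter, with DESeq2, limma-voom or the length offset, and on leaving out single DMSO libraries, 7 or 8 of the 10 genes were higher and 0 lower; Ctsh made the difference, passing with median-ratio scaling, with no filter and without DMSO replicate 1 or 2. Leaving out DMSO libraries gave medians of 0.72 to 0.75. With a 20% coefficient of variation assumed, 4 of the 10 genes were higher, and 1408 and 2063 of all genes higher and lower. The median of the 10 genes was 0.62 with library size scaling and 0.69 with the length offset, and the ratio of summed cathepsin levels was 1.80 with coding lengths. The sign of Ctsf turned to -0.0322 with upper quartile scaling, -0.109 with library size scaling and -0.107 with the length offset. On leaving out DMSO libraries Ctsf ran from -0.0607 (replicate 2) and -0.0468 (replicate 3) to 0.159 (replicate 1). With library size scaling Ctsa turned to -0.0649 and M6pr to -0.0319. The cause of these moves was not tested. Counting error limits Ctsk, Ctsh and Ctsf most, at 104 to 576 counts a library.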
